A study of Mus musculus with 6 samples.

Results

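The genes described here are 10 transcription factors of the somites and the paraxial mesoderm: Tbx6, Tcf15, Foxc1, Foxc2, Meox1, Meox2, Pax1, Pax9, Uncx and Pax3. They were taken by gene symbol from the 25701 genes listed, and all 10 were found. The rule uses no measured value, but the set was chosen with earlier results of these data known. The RNA-seq data come from CP (cardiac progenitor) cells that were differentiated from 46C, a line of mouse embryonic stem cells (ESCs) in which Sox1 carries a green fluorescent protein reporter. There were 3 libraries of control cells (46C-Ctrl), whose genotype is given as control, and 3 libraries labelled Zhx1-KO. The knockout line was made by electroporating wild-type 46C ESCs with Cas9 plasmids carrying guide RNAs for both ends of Zhx1, and the sources used here do not give how many clones it stands for. Both groups went through the same differentiation, with ascorbic acid, then BMP4, Activin A and VEGF, then VEGF, FGF10 and bFGF. The comparison between them asks which genes respond to the loss of Zhx1 at the CP stage.

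Paraxial mesoderm is the tissue on both sides of the neural tube that is cut into somites, the source of vertebrae, ribs and skeletal muscle of the trunk. Cells of the presomitic mesoderm carry Tbx6 and oscillating Notch signalling, turn into epithelial somites under Tcf15 and the Foxc and Meox factors, and then split into a ventral sclerotome with Pax1, Pax9 and Uncx and a dorsal dermomyotome with Pax3. The heart arises from other mesoderm, the lateral plate, and none of the 10 factors is a standard marker of CPs. Several of them are also used elsewhere in the embryo: Foxc1 and Foxc2 in vessels, head mesenchyme and the outflow tract, Pax1 and Pax9 in the endoderm of the pharyngeal pouches, and Pax3 in the dorsal neural tube and neural crest.

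Members of 3 paralog pairs are among the 10, and their coding sequences bear on how well the values of each gene can be separated, since reads down to 50 bases were kept. The forkhead pair is the most alike. In GRCm38, 101 bases of coding sequence in the only exon of Foxc1 (chr13:31807622-31807722, plus strand) and of Foxc2 (chr8:121117008-121117108, plus strand) differ at 3 positions, printed in capitals, and hold an identical run of 53 bases.
Foxc1: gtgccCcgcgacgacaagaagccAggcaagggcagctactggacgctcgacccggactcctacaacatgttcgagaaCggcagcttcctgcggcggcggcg
Foxc2: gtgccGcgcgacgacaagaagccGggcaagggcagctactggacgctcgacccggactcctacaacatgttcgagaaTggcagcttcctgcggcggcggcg
Over the whole coding sequences of 1659 and 1482 bases, this run gave 4 stretches of 50 bases that occur in both genes. The sclerotome pair, Pax1 and Pax9, is less alike. Around its longest identical run, of 26 bases, 100 coding bases of Pax1 (chr2:147365857-147365956, plus strand) and Pax9 (chr12:56696698-56696797, plus strand) differ at 20 positions, again in capitals.
Pax1: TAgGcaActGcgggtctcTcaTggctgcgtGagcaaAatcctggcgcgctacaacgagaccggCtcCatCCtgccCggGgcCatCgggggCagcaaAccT
Pax9: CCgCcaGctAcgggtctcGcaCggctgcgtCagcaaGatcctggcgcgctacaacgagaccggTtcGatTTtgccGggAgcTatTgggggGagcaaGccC
Pax1 and Pax9 share 0 stretches of 50 bases, and so do Meox1 and Meox2, whose longest identical run is 12 bases. Pax3 and its closest relative Pax7 share a run of 26 bases and 0 stretches of 50 bases.

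The values are normalized counts, that is gene counts divided by 1 factor per library by the authors. The 6 libraries held from 13769967 to 15940874 counts in units of the smallest step of each library. Mitochondrial genes took 2.77% of the values in 46C-Ctrl replicate 2 and 1.72% to 1.87% in the other 5 libraries, so that replicate stood apart. Zhx1 itself had 460, 181 and 457 normalized counts in 46C-Ctrl, against 225, 325 and 308 in the libraries labelled Zhx1-KO (log2 fold change -0.25, limma adjusted p = 0.579), so its transcript does not settle the labels, and "libraries labelled Zhx1-KO" is used throughout. Without 46C-Ctrl replicate 2, Zhx1 passed (-0.70, limma adjusted p = 0.0121), and the 8 factors called higher were also called without that replicate. Whether the replicates were separate cultures is not stated, so a p-value here reflects the variation among these 6 libraries and that variation may be technical. The markers of CP cells were all detected in every library of both groups, with summed normalized counts of 7770 to 8527 in 46C-Ctrl and 1081 to 1159 in the libraries labelled Zhx1-KO over the 6 genes Hand1, Hand2, Isl1, Mef2c, Nkx2-5 and Tbx5.

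Most of the somite factors were upregulated when the libraries labelled Zhx1-KO were compared with 46C-Ctrl. Of the 10 genes, 9 averaged at least 10 over all 6 libraries and were tested, and 8 of the 9 were higher at an adjusted p under 0.05 (limma on log2(value + 1), Benjamini-Hochberg over 15372 genes), against 25.6% of all genes tested. None of the 9 was lower, against 26.4% of all genes. For the same 8 genes the values of both groups were fully apart, against 30.4% of all genes tested that were higher without overlap. 7 of the 9 were higher by 2-fold or more, against 9.71% of all genes. The median log2 fold change of the 9 tested factors was 1.93, and the median of all genes tested was 0.0088. Uncx and Pax3 reached the mean of 10 only through the libraries labelled Zhx1-KO. Of the 7 factors with a mean of at least 10 in 46C-Ctrl alone, 6 were higher, and when no filter was used all 10 entered the fit and 8 were higher. In bulk RNA, a change in the share of cells that express a gene and a change in RNA per cell cannot be told apart.

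**Figure D1:**
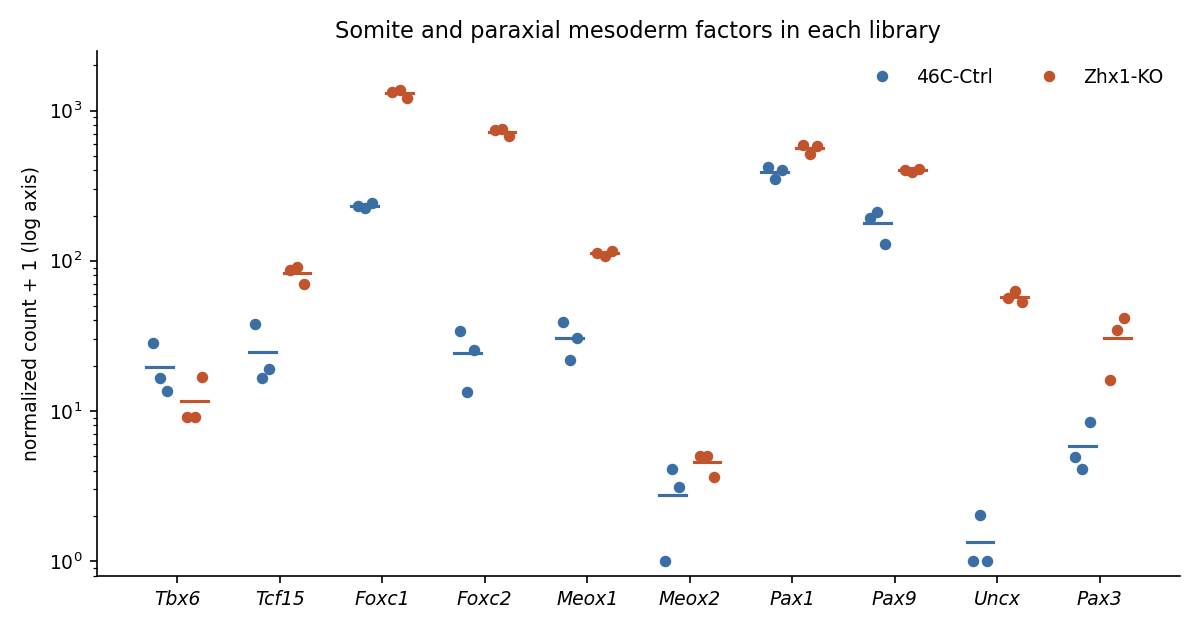
Normalized counts plus 1 (log axis) of the 10 factors in each of 3 libraries of 46C-Ctrl (blue) and 3 labelled Zhx1-KO (orange), with the group mean as a line. The points of the groups are apart for 8 factors and overlap for Tbx6 and Meox2.

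**Figure D2:**
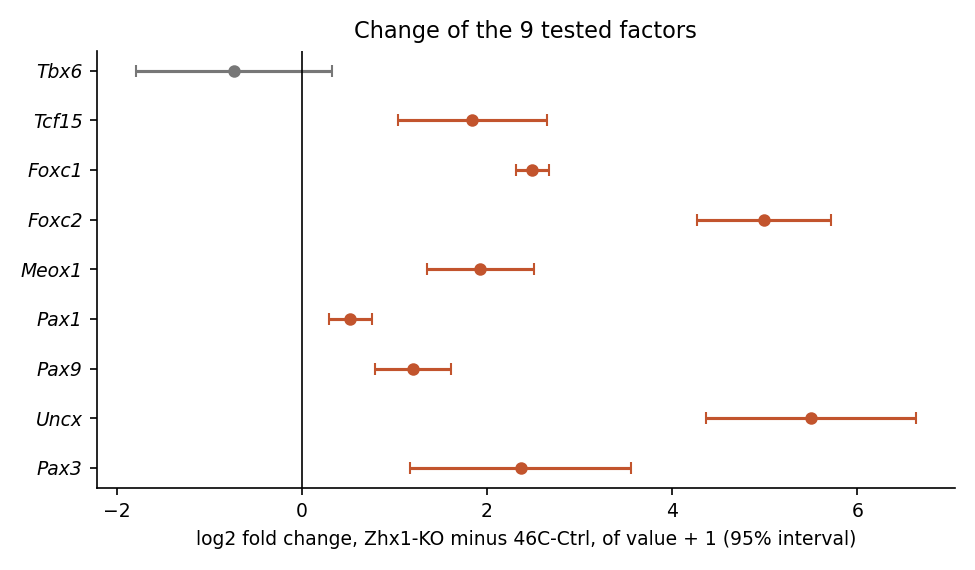
Log2 fold change (libraries labelled Zhx1-KO minus 46C-Ctrl, on log2(value + 1)) of the 9 tested factors, with the 95% interval from the limma fit as a bar. Factors with an adjusted p under 0.05 are orange, and Tbx6, whose interval from -1.79 to 0.32 includes 0, is grey.

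Tbx6, the T-box factor of the presomitic mesoderm that sets paraxial mesoderm apart from neural tissue, did not pass the test. Its normalized counts were 27.3, 15.5 and 12.7 in 46C-Ctrl, against 8.06, 8.09 and 15.8 in the libraries labelled Zhx1-KO. One library labelled Zhx1-KO lay above the 2 lower control libraries, so the groups overlapped. The means were 18.5 ± 7.76 and 10.7 ± 4.48 (SD, n = 3 each), and the log2 fold change was -0.73 (standard error (SE) 0.45, limma adjusted p = 0.213). Its 95% interval, from -1.79 to 0.32, covers a fall of more than 2-fold as well as a small rise.

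Tcf15, also called paraxis, is a basic helix-loop-helix factor needed for the epithelial form of somites. It had 37.1, 15.5 and 17.9 normalized counts in 46C-Ctrl, against 85.7, 90.0 and 68.7 in the libraries labelled Zhx1-KO. All 3 of the latter lay above the highest control, which stood apart from the other control values. The mean rose from 23.5 ± 11.8 to 81.4 ± 11.3 (SD, n = 3 each), which is a log2 fold change of 1.84 (SE 0.34, limma adjusted p = 0.003).

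The forkhead factors Foxc1 and Foxc2, which favour paraxial over intermediate mesoderm and act together in somites and vessels, had the highest levels per length when the libraries labelled Zhx1-KO are ranked alone. Foxc1 had 229, 223 and 241 normalized counts in 46C-Ctrl, against 1331, 1366 and 1217 in the libraries labelled Zhx1-KO. The replicates of each group lay close together, with means of 231 ± 9.60 and 1305 ± 77.9 (SD, n = 3 each). Its log2 fold change of 2.49 (SE 0.08) had the smallest adjusted p of the 10 factors, 5.66e-07 from limma. Foxc2 had 33.2, 12.4 and 24.3 normalized counts in 46C-Ctrl, against 737, 753 and 672 in the libraries labelled Zhx1-KO. It was low in all control libraries and high in all the others, with means of 23.3 ± 10.4 and 721 ± 42.7 (SD, n = 3 each). The log2 fold change was 4.99 (SE 0.31, limma adjusted p = 1.31e-05), and 42 of the 15372 genes tested, Foxc2 included, had one at least as high.

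Per length, the balance of the forkhead pair turned over. The ratio of Foxc2 to Foxc1, each as normalized counts per kb of exon, was 0.310, 0.120 and 0.215 in the 46C-Ctrl libraries, against 1.187, 1.183 and 1.185 in those labelled Zhx1-KO. Per kb, Foxc1 was thus the higher of the pair in every control library and Foxc2 in every library labelled Zhx1-KO. In normalized counts not divided by length, Foxc1 was the higher of the pair in every library of both groups. The reversal thus depends on the annotated exon lengths, 5844 bases for Foxc1 and 2725 for Foxc2. Reads within the 4 shared stretches of 50 bases could belong to either gene, and no source used here says how they were counted.

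The homeobox factors Meox1 and Meox2, which act together in somite patterning and muscle formation, were present at very different levels. Meox1 had 38.0, 20.7 and 29.5 normalized counts in 46C-Ctrl, against 112, 107 and 115 in the libraries labelled Zhx1-KO, with no overlap. The mean rose from 29.4 ± 8.67 to 111 ± 4.07 (SD, n = 3 each), which is a log2 fold change of 1.93 (SE 0.25, limma adjusted p = 0.000463). Meox1 lies on chromosome 11 (101877510 to 101894374, minus strand), whose 1187 tested genes had a median log2 fold change of 0.42. Of these, 99 (8.34%), Meox1 included, had a log2 fold change at least as high as Meox1, and the part of the whole chromosome in the rise of Meox1 was not tested. Sox9, Flt4 and Sost, given below as higher, also lie on chromosome 11, and its part in their rise was not tested. So do Hand1, Lhx1, Etv4 and Wnt9b, given below as lower.

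Meox2 was near the limit of detection. Its normalized counts were 0, 3.11 and 2.11 in 46C-Ctrl, against 4.03, 4.04 and 2.64 in the libraries labelled Zhx1-KO, and the groups overlapped. In whole steps this was 5 against 11, a ratio of 2.08 with a 95% counting interval from 0.66 to 7.62, so a difference was not detectable at this depth. Its mean was below 10 and it was left out of the test. An exact two-sided permutation test on its log2 values gave p = 0.2, where 3 libraries against 3 allow no p below 0.1.

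Of the sclerotome factors, Pax1 was the factor with the highest level per length in 46C-Ctrl and the one with the smallest rise of the 8. Pax1, a paired box factor of the ventral sclerotome, had 418, 349 and 403 normalized counts in 46C-Ctrl, against 591, 511 and 582 in the libraries labelled Zhx1-KO. The lowest of the latter lay above the highest control. The means were 390 ± 36.5 and 561 ± 43.8 (SD, n = 3 each), and the log2 fold change was 0.52 (SE 0.10, limma adjusted p = 0.00315). Pax9, its paralog, had 190, 211 and 129 normalized counts in 46C-Ctrl, against 399, 389 and 409 in the libraries labelled Zhx1-KO. The latter 3 lay within a narrow range, and the mean rose from 177 ± 42.9 to 399 ± 9.97 (SD, n = 3 each), which is a log2 fold change of 1.20 (SE 0.18, limma adjusted p = 0.000918). The ratio of Pax9 to Pax1 per kb of exon was 0.404, 0.538 and 0.284 in 46C-Ctrl, against 0.600, 0.677 and 0.625 in the libraries labelled Zhx1-KO, so Pax1 stayed the higher of the pair in all 6 libraries.

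Uncx, a homeobox factor of the caudal part of each somite that is needed for the pedicles of the vertebrae and the rib heads, went from the lowest of the 10 to a clear signal. It was listed at 0, 1.04 and 0 normalized counts in 46C-Ctrl, against 55.4, 61.7 and 51.9 in the libraries labelled Zhx1-KO. This was 1 step against 175 over the 3 libraries of each group, a ratio of 165 with a 95% counting interval from 29.2 to 6555. The fitted log2 fold change was 5.496 (SE 0.49, limma adjusted p = 7e-05), and it ran from 3.52 to 6.29 over the alternatives tried, since the value added before taking logs weighs on so low a control.

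Pax3, the paired box factor of the dermomyotome and of the dorsal neural tube, had 3.90, 3.11 and 7.38 normalized counts in 46C-Ctrl, against 15.1, 33.4 and 40.5 in the libraries labelled Zhx1-KO. The groups did not overlap, but the libraries labelled Zhx1-KO spread widely. The means were 4.80 ± 2.27 and 29.7 ± 13.1 (SD, n = 3 each), and the log2 fold change was 2.36 (SE 0.51, limma adjusted p = 0.00611).

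Levels of different genes can be compared only per length of exon. In the libraries labelled Zhx1-KO the order, in mean normalized counts per kb of exon, was Foxc2 (264), Foxc1 (223), Pax1 (125), Tcf15 (83.1), Pax9 (79.0), Meox1 (50.02), Uncx (18.0), Tbx6 (5.91), Pax3 (4.79) and Meox2 (1.51). The ranges over the 3 libraries overlapped between Tcf15 and Pax9 and between Tbx6 and Pax3, and all other neighbours in this order were apart. In 46C-Ctrl the order was Pax1 (86.8), Foxc1 (39.5), Pax9 (34.9), Tcf15 (23.98), Meox1 (13.2), Tbx6 (10.3), Foxc2 (8.54), Pax3 (0.775), Meox2 (0.737) and Uncx (0.110). There the ranges were apart only between Pax1 and Foxc1 and between Foxc2 and Pax3. Foxc2 moved to the first place of this order from below Tbx6, and Uncx rose from the last place to above Tbx6.

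**Figure D3:**
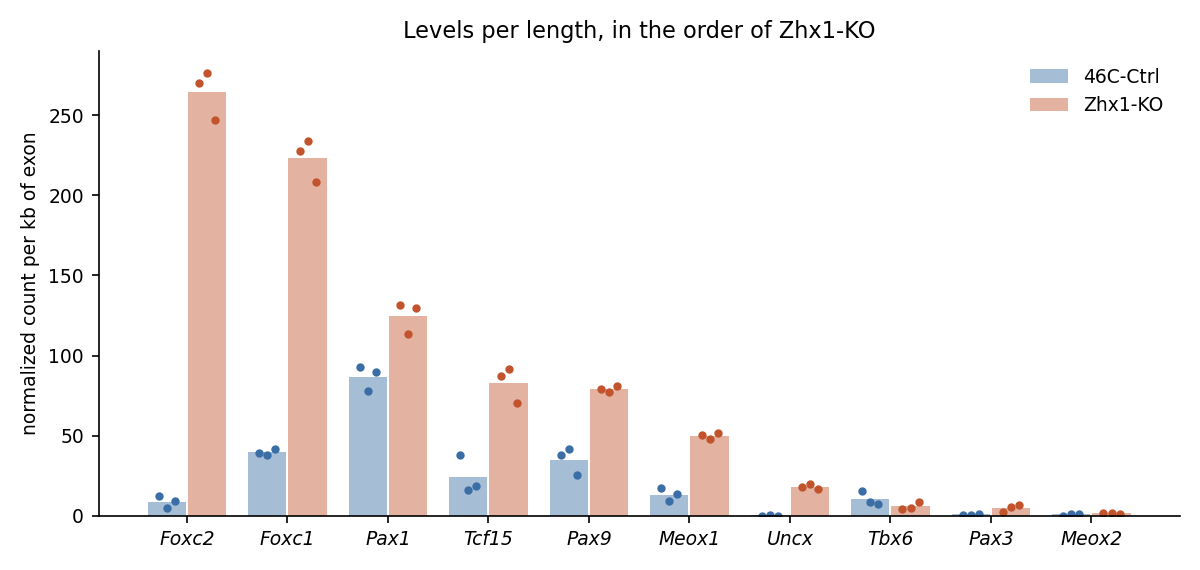
Normalized counts per kb of exon of the 10 factors, as group means (bars) with each library as a point, in the order of the libraries labelled Zhx1-KO (orange) beside 46C-Ctrl (blue). Foxc2 stands at 264 in the libraries labelled Zhx1-KO and 8.54 in 46C-Ctrl, and Tbx6 is the only factor with the higher mean in 46C-Ctrl.

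The counts of each gene list below stand beside 25.6% higher and 26.4% lower over all genes tested. Of 14 tested genes of the presomitic mesoderm and neuromesodermal progenitors, 0 were higher and 10 were lower, with a median log2 fold change of -0.88. Fgf4, Wnt3a, Wnt5b and Hoxb1 did not pass, and Msgn1, Cdx1 and Cdx4 had means below 10 and were not tested. Evx1, which marks the primitive streak, fell from 641 ± 25.0 to 11.1 ± 5.37 normalized counts (log2 fold change -5.82, limma adjusted p = 4.59e-06). Cdx2, a caudal homeobox gene of the tail bud, fell from 343 ± 42.0 to 17.6 ± 1.29, and Nkx1-2, a marker of neuromesodermal progenitors, from 511 ± 54.9 to 27.3 ± 5.09 (log2 fold changes -4.21 and -4.19). Sp5, a target of Wnt signalling, fell from 976 ± 61.4 to 232 ± 16.6 (SD, n = 3 each here and in what follows).

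Genes of the segmentation clock and the somite boundary went both ways. Of 19 tested, 6 were higher and 10 lower, with a median log2 fold change of -0.65. Dll1, Mesp2 and Snai1 did not pass, and Ripply1 and Ripply2 had means below 10 and were not tested. Nrarp, a feedback inhibitor of Notch, fell from 1120 ± 37.8 to 424 ± 21.0 normalized counts, and Dusp6, a phosphatase induced by FGF signalling, from 1872 ± 70.5 to 1086 ± 12.2. Dll3, a Notch ligand of the presomitic mesoderm, rose from 113 ± 1.58 to 308 ± 8.31, and Hey1, a Notch target, from 322 ± 23.5 to 764 ± 17.5.

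Genes of the somite compartments were mostly higher. Of 12 tested sclerotome and cartilage genes, 9 were higher and 1 lower (median log2 fold change 1.08). Hapln1, a link protein of cartilage matrix, rose from 138 ± 18.5 to 681 ± 43.0 normalized counts, and Col2a1, the collagen of cartilage, from 1431 ± 186 to 4306 ± 412. Sox9, the regulator of cartilage formation, rose from 406 ± 39.8 to 1037 ± 82.9. Zic1 was the gene that fell, from 20.04 ± 1.41 to 4.998 ± 2.95 (limma adjusted p = 0.0134).

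Of 11 tested dermomyotome and myogenic genes, 8 were higher and 1 lower (median log2 fold change 1.44). En1, a homeobox gene used in the central dermomyotome and elsewhere in the embryo, rose from 20.003 ± 2.84 to 453 ± 49.1 normalized counts (log2 fold change 4.44, limma adjusted p = 1.53e-06). Eya2, a transcriptional cofactor, rose from 256 ± 19.4 to 697 ± 28.4. Alx4, a homeobox gene of limb and head mesenchyme, fell from 211 ± 18.7 to 42.5 ± 11.5. Pax7 and Met did not pass. The muscle determination genes Myf5, Myf6 and Myod1, and Lbx1 of migrating limb muscle precursors, had means below 10 and were not tested, and Myog was not analysed here.

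Mesoderm outside the somites differed by region. Of 16 tested lateral plate and splanchnic genes, 4 were higher and 10 lower (median log2 fold change -1.96). Hand1 fell from 5774 ± 329 to 198 ± 28.1 normalized counts (log2 fold change -4.87, limma adjusted p = 1.51e-07), Gata4 from 1609 ± 237 to 95.1 ± 18.98, Gata6 from 861 ± 58.1 to 175 ± 15.5 and Tbx20 from 1474 ± 47.9 to 427 ± 15.0. Nr2f2 and Irx3 were higher, from 138 ± 9.84 to 516 ± 40.0 and from 559 ± 43.1 to 1501 ± 145. Of the 6 CP markers, 5 were lower and 0 higher (median log2 fold change -1.78), and Isl1 did not pass.

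Of 10 tested genes of pharyngeal and cranial mesoderm, 7 were higher and 0 lower (median log2 fold change 1.47). Ebf2 rose from 22.9 ± 7.16 to 314 ± 21.4 normalized counts and Eya1 from 193 ± 61.6 to 382 ± 56.8. Tbx1, the T-box factor of pharyngeal mesoderm and endoderm, was listed at 40.0, 5.18 and 0 in 46C-Ctrl, against 166, 145 and 195 in the libraries labelled Zhx1-KO (limma adjusted p = 0.00996). Of 7 tested intermediate mesoderm genes, 3 were higher and 3 lower (median log2 fold change -0.38). Lhx1, a homeobox gene of the early kidney, fell from 865 ± 101 to 36.7 ± 4.14, and Sall1 rose from 1563 ± 72.9 to 3522 ± 146. Gata3 fell from 409 ± 26.7 to 221 ± 28.2, and Wnt9b from 98.1 ± 14.3 to 26.5 ± 3.93. Of 5 tested tendon genes, 0 were higher and 3 lower (median log2 fold change -2.06). Etv5 fell from 2477 ± 158 to 479 ± 48.7, Etv4 from 558 ± 26.8 to 134 ± 23.9 and Tnc from 1254 ± 43.7 to 216 ± 37.8. Etv4 and Etv5 are also general targets of FGF signalling. Scx, the defining tendon factor, did not pass, nor did Mkx, at 130 ± 7.76 and 99.9 ± 18.3 (limma adjusted p = 0.0831, and 0.0297 without Zhx1-KO replicate 1).

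Signals that pattern somites were split. Of 17 tested signalling and retinoid genes, 8 were higher and 7 lower (median log2 fold change 0.51). The hedgehog genes rose: Shh, the ligand of notochord and floor plate that induces sclerotome, from 359 ± 33.4 to 1233 ± 17.8 normalized counts, its receptor and target Ptch1 from 1476 ± 41.2 to 5271 ± 177, and the target Gli1 from 215 ± 27.6 to 919 ± 46.3. Bmp4, which opposes somite fate in favour of the lateral plate, fell from 1316 ± 126 to 300 ± 24.3, and Wnt4 from 615 ± 75.0 to 74.7 ± 13.2.

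**Figure D4:**
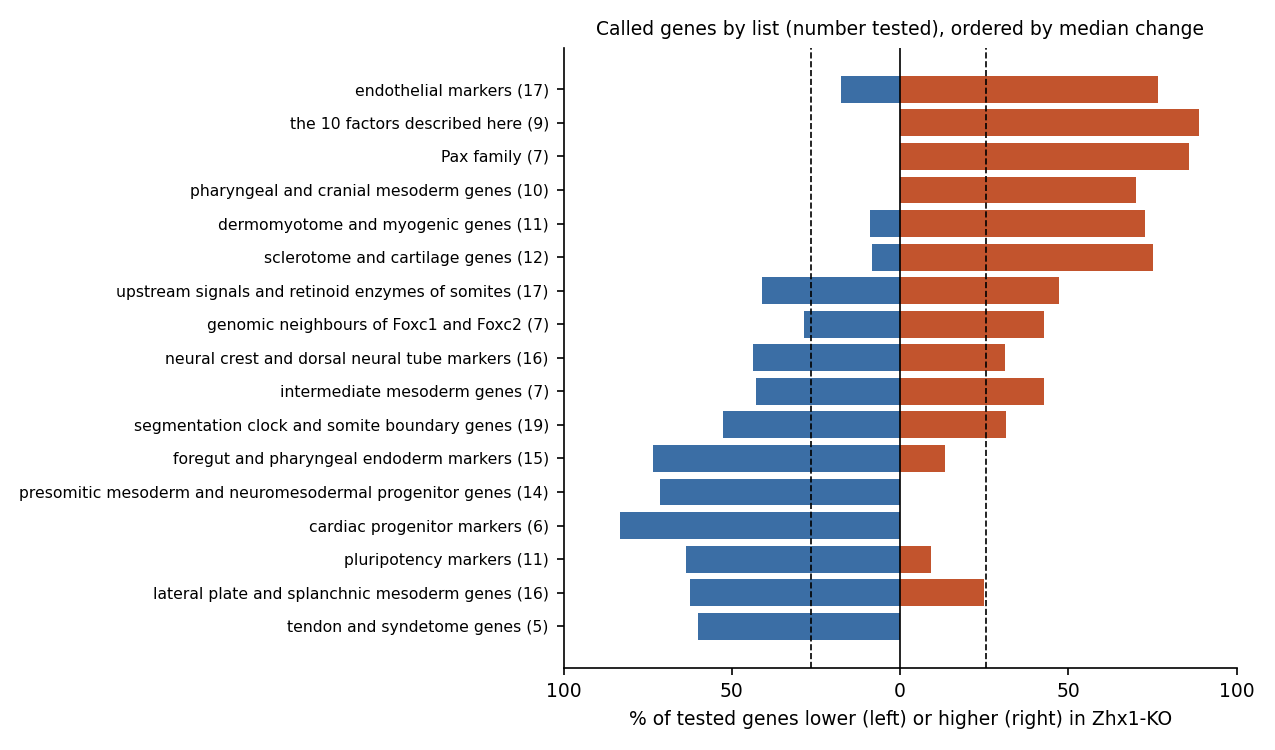
Share of the tested genes of each list that were lower (blue, left) or higher (orange, right) at an adjusted p under 0.05 in libraries labelled Zhx1-KO against 46C-Ctrl, with the number tested in brackets and the lists ordered by median log2 fold change. The dashed lines are the shares over all genes tested, 26.4% lower and 25.6% higher. Endothelial markers (median 2.19) lie above the 10 factors (1.93), pharyngeal mesoderm, dermomyotome and sclerotome genes (1.47, 1.44 and 1.08) lie below them, and tendon genes (-2.06) and lateral plate genes (-1.96) are at the bottom.

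Other cell types that use some of these factors also differed between the groups. Endothelial markers, which bear on Foxc1 and Foxc2, were higher for 13 of 17 tested and lower for 3 (median log2 fold change 2.19), and their summed normalized counts ran from 4067 to 4392 in 46C-Ctrl and from 7730 to 8318 in the libraries labelled Zhx1-KO. Cdh5, the cadherin of endothelial junctions, rose from 99.9 ± 7.16 to 875 ± 89.5, Kdr from 631 ± 20.8 to 2079 ± 112 and Flt4 from 205 ± 15.6 to 1280 ± 117, while Flt1 fell from 2051 ± 90.0 to 411 ± 16.7 and Sox17 from 438 ± 43.0 to 142 ± 32.3. Of this list, Pecam1 did not pass, and Emcn and Lyve1 were at 0 in at least 1 library. The part of endothelial cells in the rise of Foxc1 and Foxc2 was not tested.

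Foregut and pharyngeal endoderm markers, which bear on Pax1 and Pax9, were lower for 11 of 15 tested and higher for 2 (median log2 fold change -0.77). Their sum fell from between 46948 and 52579 normalized counts in 46C-Ctrl to between 20546 and 22092, and none of the 15 was at 0. The keratin gene Krt8 alone gave 24023 of this sum on average in 46C-Ctrl, so the sum weighs Krt8 heavily. Cldn6 fell from 3788 ± 128 to 1113 ± 84.1, Krt8 from 24023 ± 1393 to 7222 ± 497 and Trh from 1058 ± 39.1 to 401 ± 16.3. Shh, given above, and Nkx2-1, from 13.2 ± 2.54 to 56.5 ± 6.002, were the 2 that rose. Foxa2, a defining endoderm factor, had 717 ± 41.9 and 660 ± 24.7 (limma adjusted p = 0.201). Endoderm's part in the levels of Pax1 and Pax9 was not tested.

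Neural crest and dorsal neural tube markers, which bear on Pax3, were higher for 5 of 16 tested and lower for 7 (median log2 fold change -0.23). Their summed normalized counts ran from 6907 to 7577 in 46C-Ctrl and from 4187 to 4659 in the libraries labelled Zhx1-KO. Wnt1, a ligand of the dorsal neural tube, rose from 4.37 ± 2.13 to 135 ± 39.1, while Msx1 fell from 1870 ± 58.5 to 86.8 ± 3.38 and Msx2 from 1506 ± 65.2 to 89.4 ± 3.42. Sox10 and Tfap2a, which define migrating neural crest, did not pass, and Tfap2a, Lmx1a and Gdf7 were at 0 in at least 1 library. The part of such cells in the rise of Pax3 was not tested. Of 11 tested pluripotency markers, 7 were lower and 1 higher (median log2 fold change -1.78). Pou5f1 fell from 3524 ± 31.1 to 1024 ± 41.4, Tdgf1 from 810 ± 60.0 to 208 ± 27.3 and Tfcp2l1 from 319 ± 7.56 to 47.9 ± 12.9, and Sox2, which neural cells also express, rose from 589 ± 25.7 to 1985 ± 11.97.

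Other genes of the Pax family were also higher. With Pax1, Pax3 and Pax9 included, 6 of 7 tested Pax genes were higher and 0 lower, against 25.6% and 26.4% of all genes tested. Pax1, Pax3 and Pax9 are already counted among the factors above, so this count is not separate from theirs. Pax3 reached the mean of 10 only through the libraries labelled Zhx1-KO. The summed normalized counts of the family in 46C-Ctrl, 555 to 643, came mostly from Pax1 and Pax9 (means of 390 and 177). The other Pax genes were thus low there. The others that were higher are Pax2, Pax5 and Pax6, and of these Pax2 and Pax6 were at 0 in at least 1 library. Pax7, the closest relative of Pax3, did not pass, Pax8 had a mean below 10, and Pax4 was not analysed here.

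Genes next to the factors went both ways. The nearest protein-coding gene on each side of each factor that does not overlap it gave 20 neighbours, of which 17 were tested. Of these, 7 were higher, 3 lower and 7 did not pass, against 25.6% higher and 26.4% lower of all genes tested. So few genes beside such shares say little about the loci. Foxc1 (chr13:31806633-31812476) lies 7103 bases from Gmds, a sugar-nucleotide enzyme gene that rose from 139 ± 7.79 to 291 ± 12.3 normalized counts (limma adjusted p = 0.000109), and 175230 bases from the forkhead gene Foxf2, which rose from 65.8 ± 16.8 to 163 ± 16.4 (adjusted p = 0.00162). Further along the same cluster, Foxq1 fell from 1300 ± 88.2 to 30.3 ± 5.24 and Exoc2 rose from 790 ± 20.3 to 1199 ± 28.8. Foxc2 (chr8:121116171-121118895) lies 7779 bases from Mthfsd, at 136 ± 15.5 and 151 ± 17.6 (adjusted p = 0.427), and the next forkhead gene beyond it, Foxf1, fell from 424 ± 13.7 to 36.6 ± 9.23. Foxl1, on the other side at 9045 bases, had a mean below 10 and was not tested.

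At Pax1, Nkx2-2, a homeobox gene 167682 bases away, was at 1.95, 6.21 and 0 normalized counts in 46C-Ctrl, against 30.2, 31.3 and 33.4 in the libraries labelled Zhx1-KO (limma adjusted p = 0.00427). At Pax9, Nkx2-9 rose from 155 ± 5.12 to 324 ± 7.84, while Prps1l3 had 930 ± 38.6 and 875 ± 64.4 (adjusted p = 0.334). Next to Uncx, Micall2 rose from 98.0 ± 13.8 to 391 ± 21.6 and Zfand2a fell from 176 ± 6.82 to 96.3 ± 7.74. On the left of Pax3, 586179 bases away, Epha4, an ephrin receptor of somite boundaries, fell from 1942 ± 485 to 478 ± 221. Sgpp2, closer on the right at 113211 bases, did not pass (limma adjusted p = 0.129). At Meox1, Etv4, 92139 bases away, fell, as given above. Sost, 68084 bases away on the other side, rose from 6.87 ± 4.11 to 23.8 ± 4.85 (limma adjusted p = 0.0144, and 0.0562 without Zhx1-KO replicate 2). At Tcf15, Csnk2a1 rose from 3388 ± 163 to 4642 ± 84.7 and Srxn1 did not pass (adjusted p = 0.275). The neighbours of Tbx6, Ypel3 and Ppp4c, 969 and 306 bases away, did not pass (adjusted p = 0.187 and 0.133, and for Ypel3 0.0362 without 46C-Ctrl replicate 3).

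**Figure D5:**
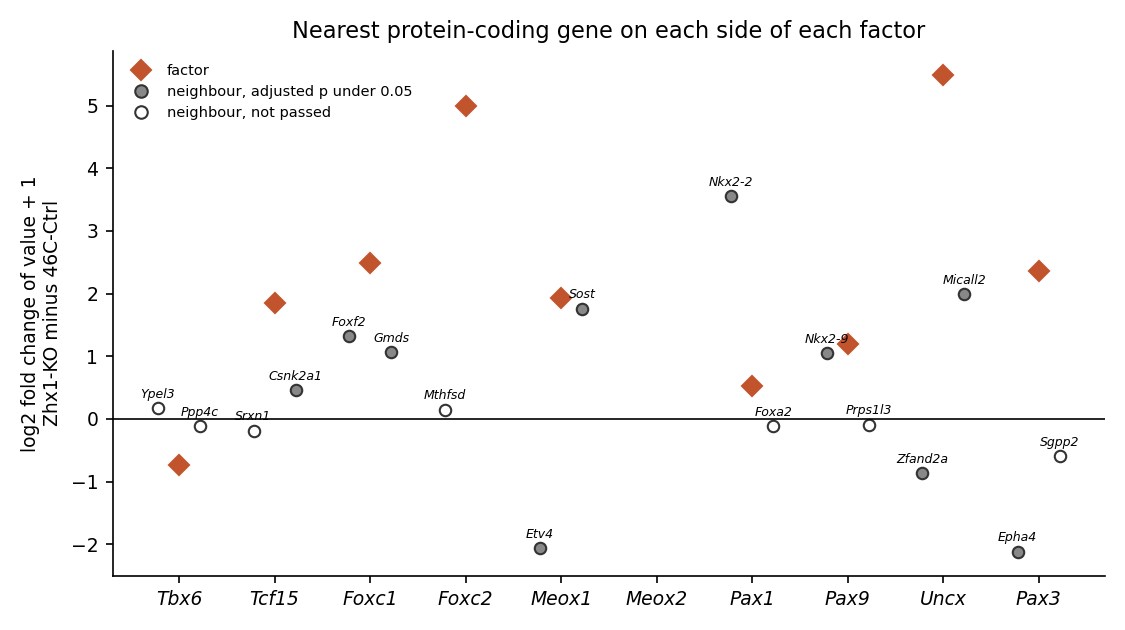
Log2 fold change of each factor (diamonds) and of the nearest protein-coding gene on its left and right that does not overlap it (circles, filled where the adjusted p was under 0.05), on log2(value + 1), libraries labelled Zhx1-KO minus 46C-Ctrl. Etv4 (92139 bases from Meox1), Zfand2a (58945 bases from Uncx) and Epha4 (586179 bases from Pax3) fell while these factors rose.

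Genes on the opposite strand overlap some of the factors. Reads were mapped with the strand of the library, and no source used here says whether the counting did so too. Gm11551, antisense to Meox1, had at most 2.02 normalized counts in any library, and AI646519, antisense to Pax1, had 9.32 to 17.6. Gm15524 and Slc25a21, on the strand opposite to Pax9, had at most 30.2 and 14.2. All 4 were well below the factors they overlap. On the same strand, Gm20388, annotated as protein-coding (chr8:119910841-124345722), spans Foxc2, and Gm48617 overlaps Meox2. Neither is among the genes listed, and no source used here says how reads in these overlaps were counted.

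Promoter sequences from RefSeq (GRCm38.p6) matched 6 of the 10 factors, Pax1, Pax9, Uncx, Meox2, Foxc1 and Tbx6, and Meox1, Pax3, Foxc2 and Tcf15 had no entry. The promoters of a factor that rose and of the one that did not pass are printed for comparison, as the 120 bases before the first base of the gene on the plus strand. The letters searched, on both strands, were TATAAA, AGGTGTGA (T-box), CTTTGAT (TCF/LEF), GTGGGAA (RBPJ), TGTTTAC (forkhead), TAATTA (homeodomain) and CAGCTG (E-box), and matches are in capitals.
Foxc1 (chr13:31806513-31806632): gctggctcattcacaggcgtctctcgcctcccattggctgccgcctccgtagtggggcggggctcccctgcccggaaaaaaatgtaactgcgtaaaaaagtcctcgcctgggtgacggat
Tbx6 (chr7:126781363-126781482): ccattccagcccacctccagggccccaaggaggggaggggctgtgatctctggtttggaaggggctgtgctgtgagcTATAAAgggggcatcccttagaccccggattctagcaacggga
The Foxc1 stretch holds 9 CG pairs and none of the searched letters, and the Tbx6 stretch holds 2 CG pairs and a TATA box 43 bases before the start site. A TATA match was found in 12.4% of 32851 promoter windows of 250 bases. These windows lie before the RefSeq start site, which can differ from the first base of the GENCODE gene. Those of Pax1, Pax9 and Uncx lie within the GENCODE gene, and that of Foxc1 reaches into it. Over the 250 bases of a window, the ratio of observed to expected CG pairs was 0.928 for Foxc1 and 0.938 for Uncx, reached by 9.79% and 9.17% of all windows. It was 0.665 for Pax1, 0.617 for Pax9, 0.503 for Meox2 and 0.281 for Tbx6. Uncx had 2 homeodomain matches in its window and Tbx6 had 1, against 4.84% of all windows with at least 1, and Meox2 had a TATA match on the other strand. T-box letters were in 1.12% of windows, TCF/LEF letters in 3.21%, RBPJ letters in 5.42%, forkhead letters in 3.17% and E-box letters in 13%, and in none of the 6. These are matches of letters and not binding sites.

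The pattern over the 6 libraries most like that of each of the 3 most abundant factors was sought among 10803 genes with a mean of at least 100. For Foxc1 it was that of Dll3, Fzd2 and Zkscan17 (Pearson r of log2(value + 1) above 0.999 each, n = 6 libraries in 2 groups), and 363 genes had an r above 0.99. For Foxc2 it was that of Vat1l, Mfap4 and Pnma2, with 228 genes above 0.99, and for Pax1 that of Pomt1, Mbd1 and Ank2, with 12. With 2 groups, any gene that differs between them with small spread scores high, so these values describe likeness only.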

How the data were processed

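PolyA RNA was sequenced in 6 libraries, 3 per group. Trimming with cutadapt 1.18, mapping to GRCm38 with HISAT2 2.1.0 and quantification with StringTie 1.3.4d were done by the authors. Cufflinks and DESeq2 are further tools in the submitters' notes. The deposited values used here are a signal per gene, counts divided by 1 factor per library, and no source used here names the program that counted reads. All values (100%) were within 0.01 of a whole multiple of their library's step (0.880 to 1.05).

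The 15372 of 25701 genes with a mean of at least 10 were fitted in R 4.3.3 by limma 3.58.1 with a trend on the mean and a single term for group, after log2(value + 1), and called at a Benjamini-Hochberg adjusted p under 0.05. Because of the added 1, fold changes of low genes are understated. The 10 factors, the other gene lists and the tests were chosen with earlier results of these data known. Named genes are the 10 factors, Zhx1, up to 4 genes per list with the smallest adjusted p among those that average 100 or more in their higher group, up to 2 called against the direction of their list, the nearest non-overlapping protein-coding gene on each side of a factor, and the 3 genes most like each of the 3 most abundant factors. Genes outside this rule that are named as not passed, not tested or at 0, and Pax2, Pax5 and Pax6, were added after their values were seen. Positions and exon lengths are from GENCODE M21 (GRCm38). Counting intervals are exact, at 95%, and cover counting error only. All 6 columns of the table were used. Alternatives covered the pseudocount, the filter, the scaling, the trend, the replicate number as a block and each library left out in turn. Some genes that this rule names are not reported here.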

Additional observations from a re-analysis of the deposited data

How the results depend on the processing

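With 3 libraries per group, the 8 factors called higher were called higher in each of the 14 or 15 alternatives in which they could be tested, and Tbx6 passed in none of its 14 (adjusted p from 0.12 to 0.502 from limma). Their number was 8 in every alternative but the filter at a mean of at least 50, which left out Uncx, Pax3 and Tbx6 and gave 6. Among sclerotome and cartilage genes, 0 were called lower under that filter in place of 1, since Zic1 was left out. The highest adjusted p was 0.0301 for Pax3, without Zhx1-KO replicate 3. Over 88 named genes and 15 alternatives, 1307 values kept their direction and side of the threshold. Prps1l3, which did not pass, changed sign under quantile normalization, to a log2 fold change of 0.0144. Zhx1 passed without 46C-Ctrl replicate 2 (-0.70, adjusted p = 0.0121), Ypel3 without 46C-Ctrl replicate 3 (0.28, adjusted p = 0.0362) and Mkx under quantile normalization (-0.51) and without Zhx1-KO replicate 1 (-0.54). The causes were not tested. The median log2 fold change of all genes was at most 0.0416 under any scaling.

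Replicate numbers are shared between the groups, but the deviations of same-numbered libraries correlated at 0.0042, -0.069 and 0.00059, so the numbers do not pair the libraries. With the replicate block 8 factors were higher and 0 lower, with 3625 and 3749 of all genes in place of 3940 and 4058. edgeR, planned for raw counts, and DESeq2 were not run, because the deposited values are normalized. In replicates 1 and 2 of Zhx1-KO, the steps of 1.01 are too close to whole numbers for reads to be told from steps. The counting intervals of Uncx and Meox2 take each step as 1 count. At this depth Meox2 and the control level of Uncx rest on a few counts.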
